A study of Mus musculus with 435 samples.

Results

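Immediate early genes and other genes that respond to cell handling were described in somatic cells of the fetal mouse testis. The 35 members were the rows of the deposited RPKM values that carry the symbols of a list of 35 genes, out of 16459 genes in all, and all 35 were found. RPKM is reads per kilobase of gene, scaled to the reads of the cell. The members fall into AP-1 factors and partners (Fos, Fosb, Fosl2, Jun, Junb, Jund, Atf3), EGR factors (Egr1, Egr2, Egr3), NR4A receptors (Nr4a1, Nr4a2), KLF factors (Klf2, Klf4, Klf6, Klf10) and a group of feedback, RNA decay and early response genes. That group holds Zfp36, Zfp36l1, Btg1, Btg2, Dusp1, Nfkbia, Socs3, Ier2, Ier3, Ier5, Gadd45b and Mcl1. The others are Myc, the matricellular genes Cyr61 and Ctgf, and the heat shock genes Hspa1a, Hspa1b, Hspa8 and Dnajb1.

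The cells came from XY gonads of mice on a mixed background that carried the NR5A1-eGFP reporter, a green marker of gonadal somatic cells, at 5 stages from E10.5 to E16.5. All labelled samples are dissociated cells: in every group the gonads were digested with trypsin and EDTA for 10 minutes at 37 °C, sorted for green fluorescence with Draq7 against dead cells, and captured on Fluidigm C1 chips. The level of a gene in the embryo and a rise during this handling therefore cannot be told apart. Of 435 labelled cells 400 were in the values and 396 were kept, in 9 captures. The 1 capture of E10.5 gave 59 cells, those of E11.5 gave 52 and 41, those of E12.5 gave 30 and 37, those of E13.5 gave 56 and 56, and those of E16.5 gave 31 and 34. The capture was the replicate. The series text calls the captures independent but the labels do not name the embryos, so p-values measure the spread between captures. Capture numbers follow the chip names and pair nothing across stages.

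Median implied depth was 7.83 to 8.1 M reads per cell in the captures labelled 25 M reads (E10.5 and E13.5) and 2.2 to 3.24 M reads in those labelled 10 M reads. The first E13.5 capture was on a medium chip and the others on small chips. The reporter was found, at 1 RPKM or more, in 85.7% to 100% of the cells of a capture and Nr5a1 itself in 55.9% to 94.1%. Germ cell markers summed to at most 9.46 RPKM in 8 captures and to 72 RPKM in the second E12.5 capture. Each of the 35 members passed the filter for testing, a mean of at least 1 RPKM in at least 2 captures, as did 12313 genes in all. Egr3, Hspa1a and Hspa1b passed it through 2 captures each, so a difference between captures is partly set by the filter for them.

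Immediate early genes are transcribed within minutes of a growth factor, stress or mechanical signal, without the need for new protein, through factors such as SRF, CREB and the ternary complex factors that are already in the cell. Many of their products are transcription factors, such as FOS and JUN, which pair to form AP-1, and others, such as the phosphatase DUSP1 and the RNA decay factor ZFP36, end the response. In single-cell studies the same genes are known to be induced while tissue is digested at warm temperature, and the inducible heat shock genes Hspa1a and Hspa1b are known for a rise after heat or proteotoxic stress.

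Promoters are shown for members on which the results below turn: Fos, Fosb and Atf3, which were lower together in 1 of the E11.5 captures, Nr4a1 and Zfp36, which differed between stages or cell classes, and the Hspa1a and Hspa1b pair. Each line gives the 250 bases before the annotated start, 5′ to 3′ along the gene, from RefSeq on GRCm38.p6. Capitals mark the CRE core TGACG, bound by CREB and ATF factors, on either strand (CGTCA on the other), the full CRE TGACGTCA, which holds the core, the heat shock element GAANNTTC, the TATA box TATAAA, and the CArG box, the SRF site.
Fos, chr12:85473640-85473889, + strand: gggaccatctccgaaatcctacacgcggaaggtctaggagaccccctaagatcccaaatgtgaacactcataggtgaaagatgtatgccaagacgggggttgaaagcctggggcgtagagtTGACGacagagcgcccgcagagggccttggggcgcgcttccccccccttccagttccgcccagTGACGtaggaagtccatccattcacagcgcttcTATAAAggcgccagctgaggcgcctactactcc
Fosb, chr7:19310046-19310295, - strand: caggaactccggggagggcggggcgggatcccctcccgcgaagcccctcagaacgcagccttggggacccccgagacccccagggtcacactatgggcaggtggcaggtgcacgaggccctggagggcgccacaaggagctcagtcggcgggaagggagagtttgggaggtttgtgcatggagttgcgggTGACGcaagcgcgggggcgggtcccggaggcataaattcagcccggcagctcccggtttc
Atf3, chr1:191183334-191183583, - strand: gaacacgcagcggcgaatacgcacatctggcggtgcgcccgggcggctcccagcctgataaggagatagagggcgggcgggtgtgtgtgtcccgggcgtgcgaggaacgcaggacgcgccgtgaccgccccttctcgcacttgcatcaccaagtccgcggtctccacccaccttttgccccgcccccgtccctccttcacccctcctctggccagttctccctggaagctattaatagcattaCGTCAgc
Nr4a1, chr15:101266596-101266845, + strand: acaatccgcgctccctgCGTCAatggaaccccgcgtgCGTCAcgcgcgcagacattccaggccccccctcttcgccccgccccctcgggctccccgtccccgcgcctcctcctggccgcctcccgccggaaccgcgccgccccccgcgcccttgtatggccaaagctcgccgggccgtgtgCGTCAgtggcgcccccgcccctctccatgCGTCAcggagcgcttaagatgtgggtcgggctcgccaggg
Zfp36, chr7:28379229-28379478, - strand: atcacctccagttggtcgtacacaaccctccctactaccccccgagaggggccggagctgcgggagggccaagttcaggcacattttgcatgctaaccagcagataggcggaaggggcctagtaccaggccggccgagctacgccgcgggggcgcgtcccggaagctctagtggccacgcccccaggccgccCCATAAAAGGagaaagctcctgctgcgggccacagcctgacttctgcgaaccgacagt
Hspa1a, chr17:34972157-34972406, - strand: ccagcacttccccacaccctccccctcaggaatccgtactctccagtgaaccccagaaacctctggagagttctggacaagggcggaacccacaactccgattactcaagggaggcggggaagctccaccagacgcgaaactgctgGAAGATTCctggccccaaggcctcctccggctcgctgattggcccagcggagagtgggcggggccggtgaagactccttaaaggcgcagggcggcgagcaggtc
Hspa1b, chr17:34959239-34959488, - strand: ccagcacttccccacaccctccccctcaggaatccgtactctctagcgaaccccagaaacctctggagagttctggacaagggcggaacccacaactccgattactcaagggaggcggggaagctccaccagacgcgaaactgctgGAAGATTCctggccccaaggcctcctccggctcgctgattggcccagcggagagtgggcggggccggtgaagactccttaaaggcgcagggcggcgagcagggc

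The CRE core occurred 2 times in the window of Fos, 4 times in that of Nr4a1 and 1 time each in those of Fosb and Atf3. RefSeq promoters were matched for 28 of the 35 members. A member was counted if any of its promoters held the motif, while the share of all promoters counts each promoter once. The shares below are thus of unlike units, and a member with several promoters had more chances of a match. The core was in 14 of those 28 (50%), beside 17.8% of all 32851 promoters of this length. The GC box GGGCGG was in 25 of 28 (89.3%, against 32.7%), the TATA box in 6 (21.4%, against 12.4%), GAANNTTC in 4 (14.3%, against 6.69%), the full CRE in 2 (7.14%, against 1.55%) and the CArG box in 2 (7.14%, against 1.47%). The AP-1 site TGANTCA was in 1 (3.57%, against 6.75%). The EGR site GCGTGGGCG and the longer heat shock element (GAANNTTC followed by NN and GAA) were in 0, against 0.536% and 0.466%. These 9 motifs were searched on both strands, and the 5 in capitals were picked after the matches were seen, so the shares are descriptions without a test. The Hspa1a and Hspa1b windows differed at 3 of 250 bases. These genes are near-identical copies, and how reads were divided between them is not given in the sources used here, so their separate values are uncertain.

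Across the 9 captures the most abundant members per length were Egr1, with a capture mean of up to 1048 RPKM, Btg2 (up to 821 RPKM), Fos (up to 722 RPKM) and Cyr61 (up to 450 RPKM). The least abundant were Egr3, Jund, Hspa1a and Hspa1b, with capture means of at most 1.79, 2.71, 2.88 and 3.34 RPKM. For 15 of the 35 members the highest capture was at E16.5, among them Fos, Fosb, Junb, Egr1, Nr4a1 and Zfp36. For 11 members the lowest capture was the second at E11.5, counting Egr3 and Hspa1a, which tied with other captures at 0. Neither count was set beside the same count over all tested genes, so they describe the members only. Egr1 and Zfp36 were the 2 members whose 3 early captures, those before E12.5, and 6 late captures, from E12.5 on, did not overlap. The share of all tested genes with such a separation was not counted. The map of members by capture shows these levels together.

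Fos was at 298 RPKM at E10.5, 403 and 94.7 RPKM at E11.5, 159 and 147 RPKM at E12.5, 346 and 305 RPKM at E13.5, and 584 and 722 RPKM at E16.5. Fosb ran in the same order of captures from 16.9 RPKM over 31.1 and 0.816, 2.75 and 1.9, and 12.8 and 12.8 to 33.8 and 42.1 RPKM. Both genes were lowest in the second E11.5 capture, low in both E12.5 captures and highest at E16.5. Jun, in contrast, was highest in the first E11.5 capture: its values in that order were 56.1 RPKM, 76.6 and 35.3, 28.6 and 11.7, 38.7 and 28.8, and 39.3 and 59.1 RPKM. Atf3 had 45.1 RPKM, 107 and 0.148, 13.4 and 13.6, 9.73 and 23.4, and 0.00793 and 17.1 RPKM, so the captures of E11.5 held its highest value and a value near 0. Klf6 (16.4 to 56 RPKM), Klf4 (7.19 to 24.5 RPKM) and Klf10 (1.2 to 19.9 RPKM) had these ranges outside the first E11.5 capture, where they were at 136, 41.6 and 13.7 RPKM.

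**Figure D1:**
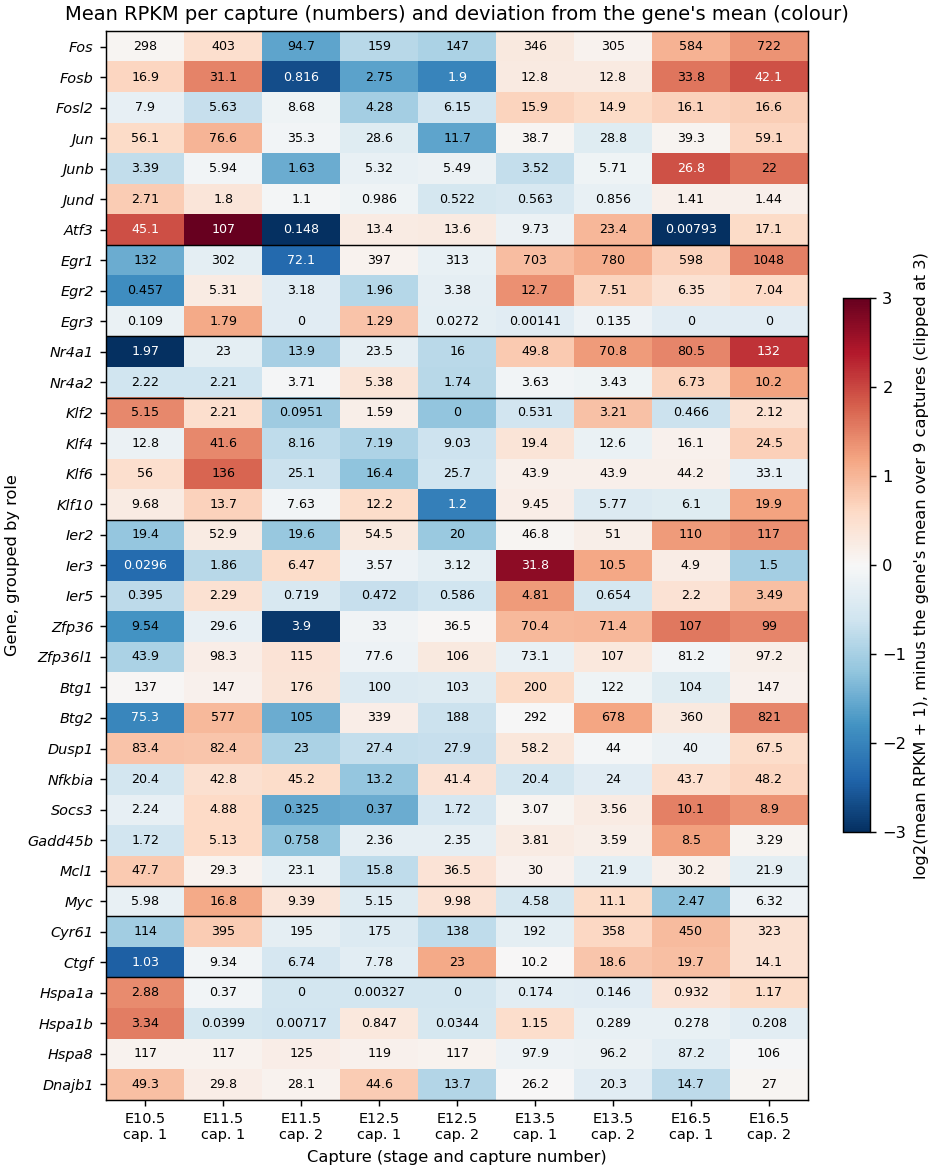
Mean RPKM of the 35 members (rows, grouped by role) in the 9 captures (columns). Numbers are capture means in RPKM, and colour is log2(mean RPKM + 1) minus the gene's mean over captures. The second E11.5 capture is blue for Fos, Fosb, Egr1, Zfp36 and Atf3, and the E16.5 captures are red for Fos, Fosb, Junb and Nr4a1.

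The largest difference within a stage was between the captures of E11.5. Of the 35 members 17 were past 2-fold lower in capture 2, on log2(mean RPKM + 1), which is 48.6% of them against 10.7% of all tested genes. Past 2-fold higher was 1 member, Ier3, against 11.8% of all genes. The median difference was -0.94 over the members and 0.02 over all genes, and 28 of 35 members were below 0. Each stage has 1 capture against 1, so these differences have no replicate check and no test.

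Fos, the inducible partner of JUN in AP-1, had a mean of 403 RPKM in E11.5 capture 1 and 94.7 RPKM in capture 2, a difference of -2.08 on the log2 scale. It was found in 49 of 52 cells (94.2%, Wilson 95% interval 84.4 to 98) and in 17 of 41 cells (41.5%, 27.8 to 56.6). Among cells with Fos the median was 255 and 132 RPKM, so both the share of cells with Fos and the level within them were lower in capture 2. Fosb, a second FOS protein, was at 31.1 and 0.816 RPKM (difference -4.14) and was found in 71.2% (57.7 to 81.7) and 4.88% (1.35 to 16.1) of cells. Atf3, a stress-induced factor that pairs with JUN, was at 107 and 0.148 RPKM (difference -6.56). It was found in 23 of 52 cells of capture 1 and in 1 of 41 cells of capture 2. These intervals cover counting error between cells of a capture, not the spread between captures.

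Jun, the other partner in AP-1, differed less, at 76.6 and 35.3 RPKM (-1.10), and was found in 92.3% and 85.4% of cells. Junb was at 5.94 and 1.63 RPKM (-1.40). Jund, the family member that most cells express without a stimulus, was at 1.8 and 1.1 RPKM (-0.42). Fosl2 went the other way, at 5.63 and 8.68 RPKM (0.55). AP-1 members thus ranged from 0.55 to -6.56 in this comparison, with 5 of 7 past 2-fold lower.

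Egr1, a zinc finger factor induced by the ERK pathway, was at 302 and 72.1 RPKM (-2.05) and was found in 88.5% (77 to 94.6) and 31.7% (19.6 to 47) of cells. Its relative Egr2 was at 5.31 and 3.18 RPKM (-0.60), while Egr3 was at 1.79 RPKM in capture 1 and listed at 0 in capture 2. Among KLF factors, Klf6 was at 136 and 25.1 RPKM (-2.39) and Klf4, a factor of growth arrest and pluripotency, at 41.6 and 8.16 RPKM (-2.22). Klf6 was found in 80.8% and 46.3% of cells and Klf4 in 57.7% and 24.4%. Klf10, a gene induced by TGF-beta, was at 13.7 and 7.63 RPKM (-0.77).

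Of the 12 feedback, RNA decay and early response genes 6 were past 2-fold lower and 1 higher. Zfp36, whose product binds AU-rich mRNAs and hastens their decay, was at 29.6 and 3.9 RPKM (-2.64). Btg2, an antiproliferative gene, was at 577 and 105 RPKM (-2.44), and 2 cells held 35.3% of its sum in capture 1. Dusp1, which dephosphorylates MAP kinases, was at 82.4 and 23 RPKM (-1.79) and was found in 69.2% and 31.7% of cells. Socs3, an inhibitor of cytokine signalling, was at 4.88 and 0.325 RPKM (-2.15) but was found in 7 and 3 cells. Ier2 (-1.39) and Gadd45b (-1.80) were past 2-fold too, as were Klf2 (-1.55) and, just past it, Cyr61 (395 and 195 RPKM, -1.01). Gadd45b and Klf2 were each found in 4 and 1 cells, and Egr3, also past 2-fold lower, in 5 and 0 cells. Ier3, the higher member, was at 1.86 and 6.47 RPKM (1.38) and was found in 4 and 3 cells. Just short of 2-fold lower stood Ier5 (-0.94), with Klf10 and Myc, the growth regulator, next (both -0.77).

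Other members hardly differed between these captures. Zfp36l1 (98.3 and 115 RPKM, 0.22), Btg1 (0.26), Nfkbia (0.08) and Mcl1, an inhibitor of cell death (-0.33), lay near 0. Ctgf, which like Cyr61 encodes a secreted matricellular protein and is a YAP target, was at 9.34 and 6.74 RPKM (-0.42). The NR4A receptors gave -0.69 for Nr4a1 and 0.55 for Nr4a2. Among the heat shock genes none was past 2-fold and the median was -0.06: Hspa8, the constitutive HSC70 chaperone, was at 117 and 125 RPKM (0.10), Dnajb1, its HSP40 partner, was at 29.8 and 28.1 RPKM (-0.08), and Hspa1a and Hspa1b were under 0.4 RPKM in both captures. The E11.5 difference thus lay mostly in AP-1, EGR, KLF and feedback genes, with Cyr61 just past 2-fold as well. It was small in Hspa8 and Dnajb1, while Hspa1a and Hspa1b were too low in both captures to show a difference on this scale.

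**Figure D2:**
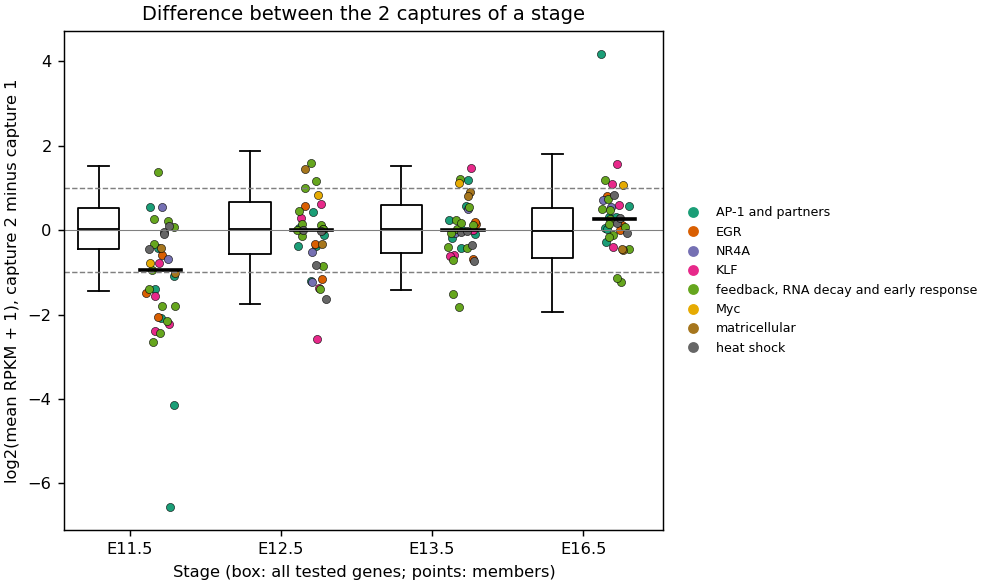
Capture 2 minus capture 1 of each stage in log2(mean RPKM + 1). Boxes span the quartiles of all 12313 tested genes with whiskers at the 5th and 95th percentile, points are the 35 members coloured by role, thick bars are the members' medians and dashed lines mark 2-fold. The members' median is -0.94 at E11.5 and between -0.01 and 0.26 at the other stages.

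Depth and cell mix also differed between the E11.5 captures, and their part in the members' difference was not tested. Median depth was 2.2 M reads in capture 1 and 2.74 M in capture 2, with medians of 4960 and 5668 detected genes. Cells that met the stromal marker gate used below were 30 of 52 in capture 1 and 15 of 41 in capture 2. Gata4, a gonadal somatic factor, was found in 48.1% and 65.9% of cells, and the reporter, Nr5a1, Gata4 and Wt1 together summed to 2056 and 3817 RPKM. Upk3b, a marker of the surface epithelium, was found in 6 of 52 cells of capture 1 and 10 of 41 of capture 2. The 3 surface epithelium markers summed to 32.8 and 73.5 RPKM, the 6 endothelial markers to 10 and 21.9 RPKM, the 5 Leydig markers to 50.8 and 37.9 RPKM, the 5 germ cell markers to 3.85 and 0.184 RPKM and the 5 macrophage markers in the values to 5.66 and 6.86 RPKM. The 2 erythroid markers in the values summed to 0.521 and 4.77 RPKM. No marker in the values of these lists was at 0 in every capture of the study.

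The split of cells by Upk3b was added after the data were seen. In cells without Upk3b (46 and 31 cells) 19 members were past 2-fold lower and 1 higher, beside 13.3% and 12.9% of all genes, with a median of -1.20. In cells with Upk3b (6 and 10 cells) 14 were lower and 2 higher, beside 18.1% and 25.3% of all genes. Fos was at 418 and 98.8 RPKM without Upk3b and at 287 and 82 RPKM with it. Egr1 was at 321 and 66.3 RPKM without Upk3b (-2.26) and at 156 and 90.1 RPKM with it (-0.79). Dusp1 was at 86.9 and 15.2 RPKM without Upk3b (-2.44) and at 48.1 and 47.3 RPKM with it (-0.02). The names of the cells also end in a number from 1 to 8 in both captures. Within these numbers the share of cells with Egr1, Fosb and Atf3 was lower in capture 2 in 8 of 8 and that of Fos in 7 of 8, with 3 to 9 cells each. For Fosb and Atf3, found in 2 and 1 of the 41 cells of capture 2, this was largely fixed by those totals. The numbers split the same captures and do not repeat the comparison.

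Many cells of capture 2 lacked both Fos and Egr1. In capture 1, 43 of 52 cells had both Fos and Egr1 and 0 had neither. In capture 2, 10 of 41 had both and 21 had neither. Fos and Fosb were found together in 35 of 52 cells and in 2 of 41. Fosb was found in 2 cells of capture 2 in all, so this pair could not be found in more. Pair counts follow in large part from the share of cells with each gene, and no count for independent genes was set beside them. The median cell had 16 of the 35 members at 1 RPKM or more in capture 1 (range 8 to 26) and 12 in capture 2 (3 to 20). The plot of single cells shows a minority of cells with high Fos and Egr1 in capture 2 beside many cells near 0.

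**Figure D3:**
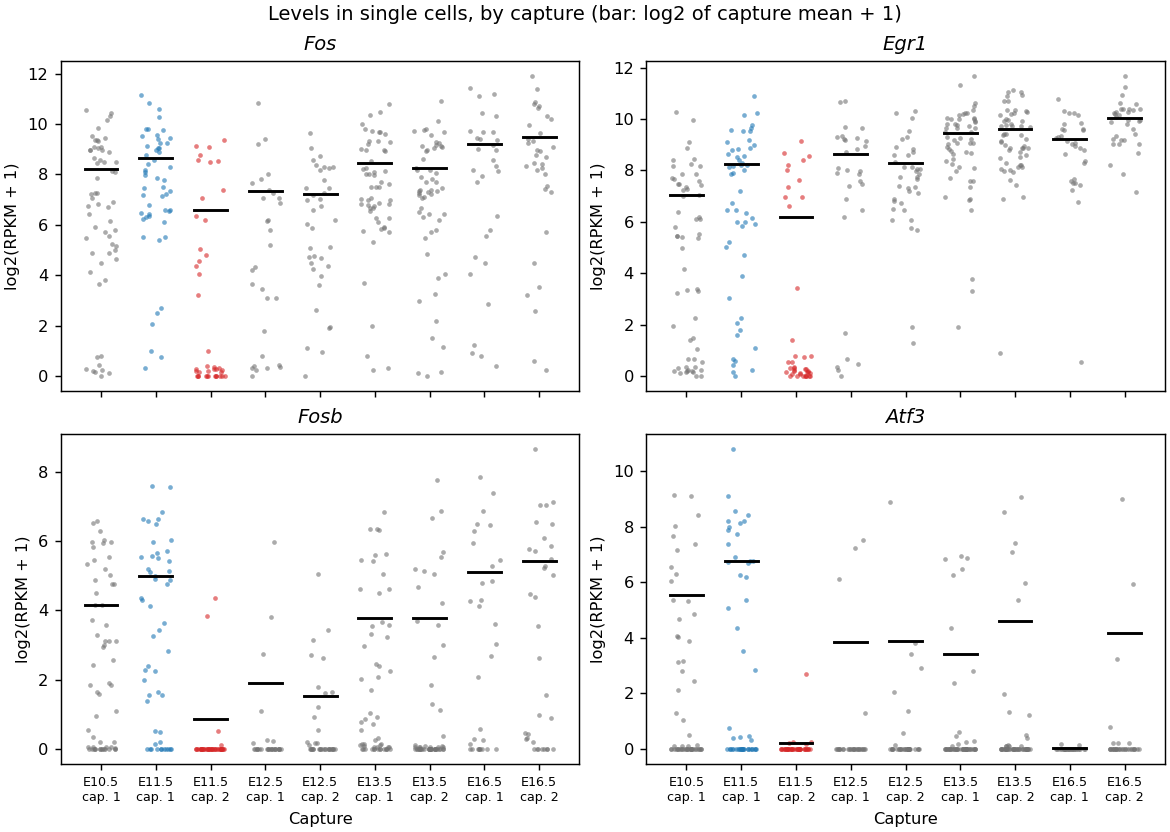
Levels of Fos, Egr1, Fosb and Atf3 in the 396 kept cells, as log2(RPKM + 1), by capture. Each point is a cell, black bars are log2 of the capture mean + 1, and the E11.5 captures are blue (capture 1) and red (capture 2). Fos was found in 49 of 52 blue and 17 of 41 red cells, and Fosb in 2 red cells.

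The other stages showed no such shift of the members. At E12.5 the members' median was -0.00 and at E13.5 -0.01, beside 0.03 and 0.02 for all genes. At E12.5, 10 members (28.6%) were past 2-fold in either direction, beside 30.8% of all genes. Klf10 was at 12.2 and 1.2 RPKM (-2.58), and 2 cells held 88.6% of its sum in capture 1. Dnajb1 (-1.63), Ier2 (-1.40), Klf2 (-1.37), Jun (-1.22), Nr4a2 (-1.22) and Egr3 (-1.15) were the other lower members, and Nfkbia (1.58), Ctgf (1.45) and Mcl1 (1.16) were the higher ones. At E13.5, 6 members (17.1%) were past 2-fold in either direction, beside 24.7% of all genes. The lower ones were Ier5 (-1.81) and Ier3 (-1.52), and the higher ones were Klf2, Btg2, Atf3 and Myc, between 1.12 and 1.46.

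At E16.5, 7 members (20%) were past 2-fold in either direction, beside 30.5% of all genes, with a members' median of 0.26. Lower in capture 2 were Ier3 (-1.24) and Gadd45b (-1.15). Among the higher ones Atf3 stood far apart, with 0.00793 RPKM in capture 1 and 17.1 RPKM in capture 2. It was found at 1 RPKM or more in 0 of 31 cells of capture 1, which allows a share of such cells of up to 9.68% (3 of 31 cells, counting error only), and in 3 of 34 cells of capture 2, where 2 cells held 98.3% of its sum. The other higher members were Klf10, Btg2, Klf2 and Myc, between 1.08 and 1.55. Fos was at 584 and 722 RPKM and Egr1 at 598 and 1048 RPKM in these captures.

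Related genes outside the list were counted for the same E11.5 comparison, in which 10.7% of all tested genes were past 2-fold lower and 11.8% higher. Of 24 other early response genes 17 were tested, and 6 were past 2-fold lower in capture 2 and 2 higher, with a median of -0.52. Of 16 other chaperones, all tested, 1 was lower and 0 higher, with a median of 0.06. Of 15 upstream factors 14 were tested, and 0 were lower and 1 was higher. Of 9 genes of the endoplasmic reticulum and ATF4 stress response 2 were lower and 1 higher, and of 4 tested NF-kB targets 2 were lower.

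Differences between stages were then set against the spread between captures with limma on log2(mean RPKM + 1), with Benjamini-Hochberg adjustment over all 12313 genes and a threshold of 0.05. A stage with 1 capture, as E10.5 is and as a stage becomes when 1 of its captures is left out, is assumed to vary like the stages with 2. Any difference among the 5 stages was called for 1 member, Nr4a1 (adjusted p = 0.00262), as for 1.62% of all genes. Egr1 (adjusted p = 0.0619 by limma) and Zfp36 (adjusted p = 0.072 by limma) came next, and 13 members (37.1%) had an unadjusted p under 0.05, as had 1545 of the 12313 genes. Without E11.5 capture 1 the members called were 5 (Fos, Fosb, Egr1, Nr4a1 and Zfp36), and without capture 2 they were 4 (the same without Fos). Over all genes 200 were called in the full fit, 117 without E11.5 capture 1 and 101 without capture 2.

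Nr4a1 encodes NUR77, an orphan nuclear receptor that is induced by many signals, among them hormones that act on steroid-producing cells. The E10.5 capture had a mean of 1.97 RPKM, those of E11.5 had 23 and 13.9 RPKM, those of E12.5 had 23.5 and 16 RPKM, those of E13.5 had 49.8 and 70.8 RPKM, and those of E16.5 had 80.5 and 132 RPKM. The levels thus followed the order of the stages, except that E11.5 and E12.5 overlapped. The share of cells with Nr4a1 was 8.47% at E10.5 (3.67 to 18.4), 36.7% to 41.5% at E11.5 and E12.5, and 64.5% to 82.1% at E13.5 and E16.5. Between E10.5 and E13.5, both labelled 25 M reads, Nr4a1 rose by 4.35 ± 0.547 (SE) on the log2 scale (limma adjusted p = 0.00242). The E10.5 side of this test is 1 capture, and the SE is made from the spread between captures of the other stages. It was the 1 member called there, beside 0.958% of all genes higher and 0.106% lower. Leaving out any 1 of the 8 other captures gave 4.10 to 4.60 with limma adjusted p of at most 0.0267, while the E10.5 capture itself could not be left out. The 5 Leydig markers summed to 13.4 to 50.8 RPKM in the early and 56.8 to 963 RPKM in the late captures, and their part in the rise of Nr4a1 was not tested.

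**Figure D4:**
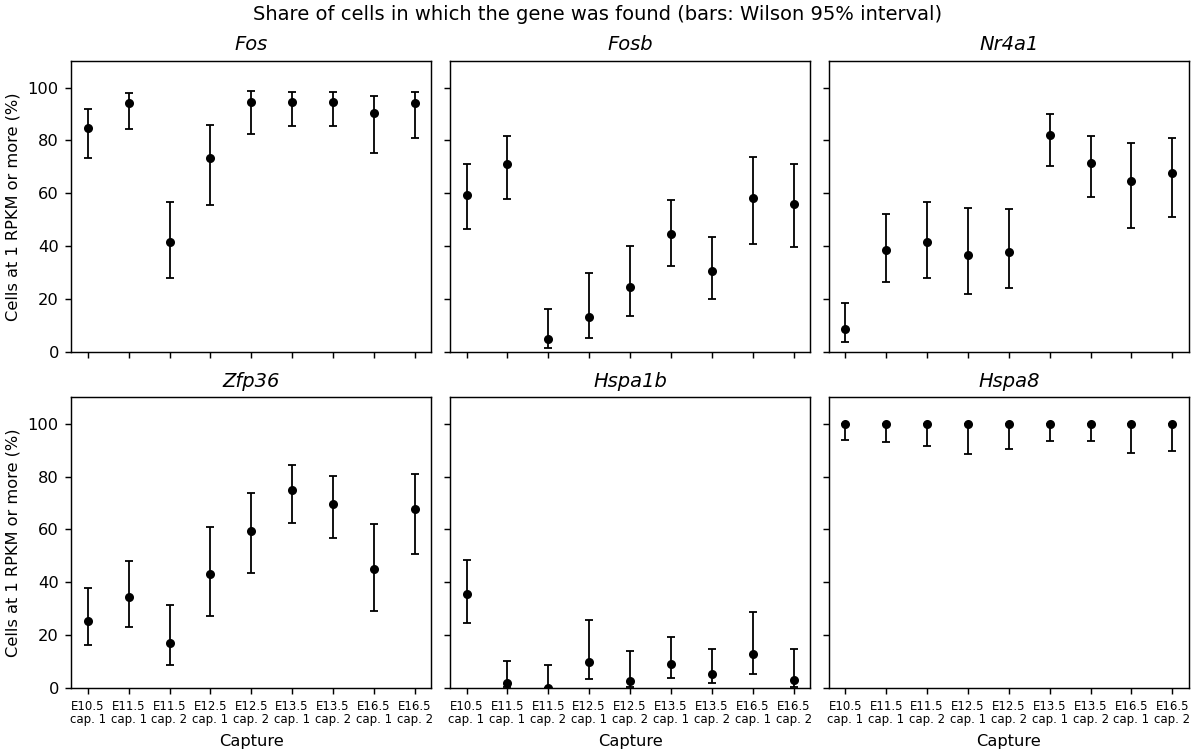
Share of cells in a capture (y axis, percent) with Fos, Fosb, Nr4a1, Zfp36, Hspa1b and Hspa8 at 1 RPKM or more. Points are captures and bars are Wilson 95% intervals. Fos and Fosb dip in E11.5 capture 2, Nr4a1 stands at 8.47% at E10.5 and 64.5% or more at E13.5 and E16.5, and Hspa8 is at 100% throughout.

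From E11.5 to E16.5, both labelled 10 M reads, 3 members rose and 0 fell by limma, beside 0.991% of all genes higher and 0.528% lower. An unadjusted p under 0.05 was found for 10 members (28.6%) and 12.9% of all genes. Nr4a1 rose by 2.46 ± 0.447 (SE), Egr1 by 2.41 ± 0.522 and Zfp36 by 3.09 ± 0.649 (limma adjusted p = 0.0197, 0.0443 and 0.0396). Each of the 3 rises lost its call without E11.5 capture 2, where the values were 2.12, 1.39 and 1.77 (limma adjusted p = 0.194, 0.269 and 0.186). Nr4a1 also lost it without E11.5 capture 1 or either E16.5 capture, and Egr1 and Zfp36 without any single capture of E12.5, E13.5 or E16.5. Fos, with a mean of 403 and 94.7 RPKM at E11.5 and 584 and 722 RPKM at E16.5, had a difference of 1.73 ± 0.503 (SE, limma adjusted p = 0.132).

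Between the 3 early and the 6 late captures, 2 members rose and 0 fell by limma, beside 0.463% of all genes higher and 0.114% lower. An unadjusted p under 0.05 was found for 4 members (11.4%) and 10.9% of all genes, so the members' share was near that of all genes. Egr1 was at 169 ± 119 RPKM (SD, n = 3 captures) early and 640 ± 267 RPKM (n = 6) late, a rise of 2.05 ± 0.418 (SE, limma adjusted p = 0.0481). The early values were 132, 302 and 72.1 RPKM, and the late values 397 and 313 RPKM at E12.5, 703 and 780 RPKM at E13.5, and 598 and 1048 RPKM at E16.5. Zfp36 was at 14.3 RPKM early and 69.6 ± 30.7 RPKM (SD, n = 6) late, a rise of 2.47 ± 0.508 (SE, limma adjusted p = 0.0481). Its early values were 9.54, 29.6 and 3.9 RPKM and its late values 33 and 36.5, 70.4 and 71.4, and 107 and 99 RPKM, so the nearest captures of the groups, at 29.6 and 33 RPKM, were close. Both calls were lost without E10.5, without E11.5 capture 2 and without any 1 of the E13.5 and E16.5 captures (limma adjusted p of up to 0.151 for Egr1 and 0.159 for Zfp36). Within captures labelled 10 M reads the rises were 1.83 for Egr1 and 2.32 for Zfp36 (limma adjusted p = 0.445 and 0.442). Within 25 M reads they were 2.48 and 2.77, from 1 early and 2 late captures with 1 residual degree of freedom, and are given as values without a test. Nr4a1, whose early and late captures overlapped, had a difference of 2.30 ± 0.7 (SE, limma adjusted p = 0.198).

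Other members had levels that differed between stages without passing the test. Junb was at 26.8 and 22 RPKM at E16.5 and at 1.63 to 5.94 RPKM in the 7 other captures, so the groups did not overlap. The share of all tested genes that separate in this way was not counted. In the E16.5 captures, 2 cells held 63% and 41.2% of the Junb sum. Its difference from E11.5 to E16.5 was 2.57 ± 0.616 (SE, limma adjusted p = 0.0667). Ier3 was at 0.0296 RPKM at E10.5, where 1 of 59 cells had it, and at up to 31.8 RPKM at E13.5, a difference of 4.23 ± 0.932 (SE, limma adjusted p = 0.0608, with 1 capture at E10.5). Ctgf was at 1.03 RPKM at E10.5 and 6.74 to 23 RPKM elsewhere. Dusp1 was highest at E10.5 (83.4 RPKM) and Atf3 in E11.5 capture 1 (107 RPKM), followed by E10.5 (45.1 RPKM), while the late captures of Atf3 lay at 23.4 RPKM or less.

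None of the members was called between neighbouring stages by limma. Of all genes 0.39% were called from E10.5 (1 capture) to E11.5, 0% from E11.5 to E12.5 and from E12.5 to E13.5, and 0.0893% from E13.5 to E16.5. An unadjusted p under 0.05 was found from E10.5 to E11.5 for 8 members (22.9%), beside 6.39% of all genes. From E11.5 to E12.5 it was found for 4 members (11.4%, beside 7.8%), from E12.5 to E13.5 for 4 (11.4%, beside 4.57%) and from E13.5 to E16.5 for 3 (8.57%, beside 8.47%).

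Hspa1a and Hspa1b, the heat-inducible HSP70 genes, were highest at E10.5, at 2.88 and 3.34 RPKM. In the 8 other captures Hspa1a was at 0 to 1.17 RPKM and Hspa1b at 0.00717 to 1.15 RPKM. At E10.5 21 of 59 cells had Hspa1b (35.6%, 24.6 to 48.3), as had at most 12.9% of the cells of any other capture. For Hspa1a the shares were 23.7% and at most 12.9%. The E13.5 captures, of like depth, had Hspa1b in 8.93% and 5.36% of cells. With 1 capture at E10.5 the differences were not called, at -1.73 for Hspa1a and -2.09 for Hspa1b from E10.5 to E11.5 (limma adjusted p = 0.654 and 0.545). Hspa8 was found in every kept cell, with capture means of 87.2 to 125 RPKM, the narrowest range of the 35 members (1.43-fold).

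Members that moved between cell classes were sought in the 6 late captures, within which both classes had passed through the same digestion and chip. Cells with at least 3 of 7 Sertoli markers and more of them than stromal markers (73 cells) were compared with cells with at least 3 of 8 markers of the stroma and at most 1 Sertoli marker (97 cells), with the capture as a block. Another 74 late cells fell in neither class. At the gate's edge, 20 late cells had exactly 3 Sertoli markers and 31 had exactly 3 stromal markers. Of the 33 members tested (Egr3 and Hspa1a were too low) 1 was higher and 2 were lower in Sertoli-marker cells, beside 3.24% and 3% of 11955 genes.

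Zfp36 was at 15.6 ± 8.88 RPKM (SD, n = 6 captures) in Sertoli-marker cells and 89.5 ± 53.3 RPKM in stromal-marker cells, a difference of -2.65 ± 0.449 (SE, limma adjusted p = 0.00323). In Sertoli-marker cells it ranged over captures from 0.0806 RPKM (the first E12.5 capture) to 27.5 RPKM and in stromal-marker cells from 24.3 to 161 RPKM, so the classes overlapped across captures but not within any of them. Zfp36l1, its paralog with the same kind of RNA-binding domain, was at 30.5 ± 14.9 and 129 ± 31.1 RPKM, a difference of -2.16 ± 0.34 (limma adjusted p = 0.00199). Both were lower in Sertoli-marker cells in 6 of 6 captures and stayed called under each alternative run for this comparison. Nfkbia, the inhibitor of NF-kB, was at 46 ± 28.7 and 13.2 ± 9.16 RPKM, higher in 6 of 6 captures by 1.77 ± 0.47 (SE, limma adjusted p = 0.0413). Its call was lost in 5 of the 6 fits that left out a capture, all but that without E12.5 capture 2, with limma adjusted p of up to 0.117.

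**Figure D5:**
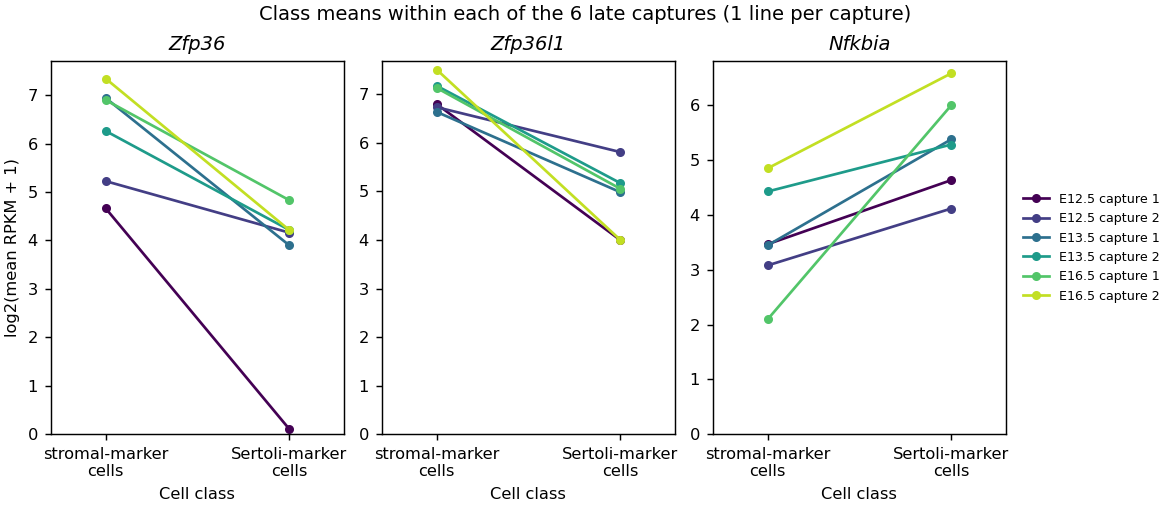
Mean level of Zfp36, Zfp36l1 and Nfkbia, as log2(mean RPKM + 1), in stromal-marker and Sertoli-marker cells of each late capture (1 line per capture). Lines fall in 6 of 6 captures for Zfp36 and Zfp36l1 and rise in 6 of 6 for Nfkbia.

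The AP-1 and EGR members were not called between these classes in the full fit. Fos was at 251 ± 104 and 588 ± 502 RPKM (SD, n = 6), a difference of -0.73 ± 0.357 (SE, limma adjusted p = 0.273), and Egr1 at 477 ± 207 and 760 ± 340 RPKM, -0.63 ± 0.198 (SE, limma adjusted p = 0.0813). Both were lower in Sertoli-marker cells in 5 of 6 captures. The exception was E12.5 capture 1, with 5 Sertoli-marker cells, where Fos was at 184 and 70.8 RPKM and Egr1 at 369 and 261 RPKM. Without that capture both were called, at -1.15 for Fos and -0.86 for Egr1 (limma adjusted p = 0.03 and 0.00548), as were 624 of all genes. Leaving out the capture that goes the other way was bound to widen both differences, so this fit is no separate support. Neither gene was called when any other capture was left out. Fosl2 was called with the mean of log2 values (-1.40, limma adjusted p = 0.0339). The median difference over the 33 members was -0.52, beside -0.04 over all genes, and 9 members (27.3%) had an unadjusted p under 0.05, beside 20.2% of all genes. Sertoli-marker cells had median detected genes of 5020 to 6910 per capture and stromal-marker cells 4957 to 5631, and the part of this in the class differences was not tested.

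Among related genes fixed with the list, Mafk, a small MAF factor, was higher in Sertoli-marker cells by 3.20 ± 0.584 (SE, limma adjusted p = 0.00502), the 1 called of 16 other early response genes tested. Hsf2, a heat shock factor, fell by 3.16 ± 0.639 on the log2 scale from E10.5 to E13.5 (limma adjusted p = 0.039), the 1 called of 14 upstream factors. Here too the E10.5 side is 1 capture and the spread comes from the other stages.

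Some members varied with Fos between cells of the same capture. Spearman's rho with Fos, over the captures in which at least 5 cells had the gene, had a median over captures of 0.56 for Egr1 (range 0.38 to 0.61), 0.46 for Fosb, 0.41 for Btg2, 0.40 for Dusp1 and 0.37 for Ier2. At the other end it was -0.11 for Hspa8, -0.05 for Nfkbia and -0.02 for Klf10. The median over captures was above 0.2 for 18 of the 34 other members (52.9%), beside 1.71% of 11360 genes, and below 0 for 3. Among the 18, Egr3 and Hspa1a rest on 1 capture each and Ier5, just above 0.2, on 3 captures. Cells of a capture share a chip and a library preparation and differ in depth. Fos itself had a median rho of -0.03 with the number of detected genes (range -0.15 to 0.29), and Hspa8 had 0.40. These values are descriptions over 30 to 59 cells per capture.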

How the data were processed

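Single NR5A1-eGFP positive XY gonad cells were sequenced after SMARTer cDNA synthesis on C1 chips and Nextera XT library preparation, per the labels' protocols. The authors deposited RPKM per gene and cell. Builds named in the submitters' processing notes are GRCm38.p3 and mm10, while aligner and counting tool were not given in the sources used here. That the unit is RPKM was inferred, since low values step with gene length. The steps imply 0.856 to 13 M reads per cell. Whole multiples of a step (within 0.05) made up 68.7% of the values up to 20 reads in a median cell, too few to recover counts.

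A cell needed 3000 detected genes (3 failed), and 2 near-identical cells (correlation 0.998, next closest 0.701) were averaged. Means over the cells of each capture, as log2(mean + 1), went into limma 3.58.1 (trend, robust) in R 4.3.3 if they reached 1 RPKM in 2 captures or more. Fits were tested on simulated data. A gene was found in a cell at 1 RPKM or more. Differences between captures of a stage were called past 2-fold. Full values were given for called members, the 8 with the largest capture differences, and Fos, Jun, Egr1, Atf3, Hspa1a, Hspa1b and Hspa8. Members, gene lists, markers and tests were chosen with earlier results of these data known. Of the labelled cells 35 were not used here. Alternatives were a pseudocount of 0.1, no filter, the mean of log2 values, median-ratio scaling, all cells, each capture left out, each read depth alone, a gate of 4 markers, no capture block, a 5 RPKM threshold, and the 2 highest cells of a gene left out. Added after seeing the data were the near-identical cells kept apart and the E11.5 cells split by Upk3b.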

Additional observations from a re-analysis of the deposited data

Results flagged for a closer look

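In 3 of the 35 members 1 of the 6 late captures stood apart from the other 5, with a gap to its nearest neighbour, as a share of the whole range on the log2(mean RPKM + 1) scale, above Dixon's 95% critical value. Chance gives such a gap in about 1 in 20 groups. Egr3 was at 1.29 RPKM in E12.5 capture 1 and at 0 to 0.135 RPKM in the others (gap 0.847 of the range). That mean came from 1 of 30 cells. The capture is also 1 of the 2 through which Egr3 passed the filter, so its gap is partly set by the filter. Atf3 was at 0.00793 RPKM in E16.5 capture 1 and at 9.73 to 23.4 RPKM in the others (gap 0.742). Gadd45b was at 8.5 RPKM in E16.5 capture 1 and at 2.35 to 3.81 RPKM in the others (gap 0.653).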

How the results depend on the processing

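Counts of members called by limma moved with several settings. Late against early captures gave 2 members (71 of all genes). It gave 0 with a pseudocount of 0.1 (61 of all genes) or without the filter (4 of all genes). It gave 1 with the mean of log2 values (83 of all genes), with median-ratio scaling (63) or with all cells (63). In the 10 M read captures alone it gave 0 (0 of all genes), and with single captures left out 0 to 2 (15 to 113 of all genes). The 25 M read captures alone have 1 early capture and 1 residual degree of freedom, so no count is given for them. Any difference among the stages gave 1 (200 of all genes), and 0 without the filter, 8 with the mean of log2 values (598 of all genes) and 1 to 5 with captures left out. E10.5 to E11.5, with 1 capture at E10.5, gave no member in the main fit. Nr4a1 (3.12) was called with the pseudocount of 0.1, and Hspa1a (-0.74) and Hspa1b (-1.08) with the mean of log2 values. More genes were called in all under both settings than in the main fit. Hspa1a and Hspa1b passed the filter through E10.5 and 1 other capture each. E10.5 to E13.5, also with 1 capture at E10.5, gave Nr4a1 (4.35) in the main fit. Ier3 (7.15) joined it with that pseudocount, Hspa1a (-1.74) without the filter, and further members with the mean of log2 values. More genes were called in all under each of these settings. With captures left out, Nr4a1 stayed called and other members joined it in some fits. E11.5 to E16.5 gave 3 (187 of all genes), and 1, 0 and 5 under those settings (148, 27 and 497 of all genes) and 0 to 4 with captures left out. The class comparison gave 3 (746 of all genes), and 6 with the mean of log2 values (1499 of all genes). With no replicate block it gave 3 as well. No paired analysis across stages was possible because capture numbers only name the captures. Members past 2-fold between captures, 18 at E11.5, 10 at E12.5, 6 at E13.5 and 7 at E16.5, became 11 at E11.5, 6 at E12.5 and 3 at E16.5 with the mean of log2 values, and 3 at E13.5 and 4 at E16.5 without the 2 highest cells of a gene. At E11.5 the 11 were all lower in capture 2, beside 0.625% of all genes lower and 4.44% higher. Without the 2 highest cells 17 were lower and 0 higher, beside 8.06% and 9.16% of all genes. With the mean of log2 values, members lower and higher were 2 and 4 at E12.5, beside 2.87% and 4.6% of all genes. With that mean they were 1 and 2 at E16.5, beside 8.98% and 0.82%. Without the 2 highest cells they were 1 and 2 at E13.5 (10.2% and 9.87% of all genes) and 1 and 3 at E16.5 (15.6% and 7.39%). The causes were not tested. Single-gene values were recomputed for Atf3, Btg2, Egr1, Fos, Fosb, Klf4, Klf6, Nfkbia, Nr4a1, Socs3, Zfp36 and Zfp36l1 in the comparisons they are named for, and none of these changed sign. A comparison with E10.5 has 1 capture on that side whenever it is run. Of the alternative counts 122 stayed within 1.5 times and 41 did not. Many of the 122 are counts between neighbouring stages that stayed at 0 members, so the 122 are no measure of stability. Of single-gene values 181 kept their call, 52 lost it and 3 moved: Egr1 at E11.5 in cells with Upk3b (-0.79), Socs3 with the mean of log2 values (-0.46), and the share of cells with Fosb in E11.5 capture 1 at a 5 RPKM threshold (55.8%). With 1 or 2 captures a stage and shallow cells, a gene that was not called is not shown to be stable.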
